A study of Mus musculus with 24 samples.

Results

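Markers of alternative macrophage activation were read in RNA-seq of macrophages with and without Olfml3, the gene of olfactomedin-like 3, a secreted glycoprotein. The markers were Il4ra, Mrc1, Mgl2, Chil3, Retnla, Ccl17, Ccl22 and Ccl24, found by their gene symbol, and they are 8 of the 56691 genes listed in each of the 2 deposited tables. The study sequenced 24 libraries. RAW264.7, a leukaemia line of mice that resembles macrophages, gave 12 and bone marrow-derived macrophages (BMDMs) gave the other 12. Within a cell type 3 libraries stood for each of 4 groups, namely wild type (WT) with PBS, Olfml3 knockout (KO) with PBS, WT with lipopolysaccharide (LPS) and KO with LPS. LPS, an outer membrane component of Gram-negative bacteria, was given at 100 ng/mL for 4 h, and no group received IL-4 or IL-13 by the labels. The KO RAW264.7 cells were made with sgRNAs carried by lentivirus and grown out as single-cell clones, and the number of clones behind the 3 libraries of a group is not stated in the labels or methods. The KO BMDMs came from C57BL/6 mice with a global Olfml3-/- deletion, and BMDMs were grown from the marrow of 8-week-old male mice for 6 days in medium with 20% supernatant of L929 cells, a source of the macrophage growth factor M-CSF. The study calls the replicates biological, and how many mice or cultures the 3 libraries of a group came from was not given either, so the p-values below measure the spread between libraries.

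Alternative activation is the state that macrophages enter under IL-4 and IL-13, cytokines of type 2 immunity. IL-4 binds the receptor chain encoded by Il4ra together with the common gamma chain or the IL-13 receptor, Janus kinases then phosphorylate STAT6, and STAT6 switches on genes such as Mrc1, Mgl2, Chil3, Retnla, Ccl17, Ccl22 and Ccl24. LPS acts through Toll-like receptor 4 and drives the classical programme, with nitric oxide synthase and inflammatory cytokines, in which NF-kB is a main transcription factor. Several of the markers also answer to other signals, and CCL17 and CCL22 are made by dendritic cells and by macrophages exposed to microbial products.

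RAW264.7 libraries held 11638273 to 16478616 counts each, and BMDM libraries 17121240 to 22873094. The targeted gene checks the labels. Olfml3 had 0.53 to 0.65 FPKM (fragments scaled by the exon length of the gene and by the total of the library) in WT BMDMs with PBS and 0.24 to 0.25 with LPS, against 0.01 to 0.03 and 0 to 0.01 in KO BMDMs. In RAW264.7 it went against the label, with 0.65 to 1.19 FPKM in the PBS libraries labelled KO against 0.15 to 0.19 in WT. With LPS it was 18.3 to 18.9 against 0.13 to 0.29. The reason was not tested, so these libraries are called "labelled KO" throughout and directions refer to the label. The label is the sample title, and the genotype tag of the samples contradicted the title in 12 of the 24 libraries. In 23 of 24 libraries the mean correlation with the own group exceeded that with the other genotype of equal treatment. Replicate 1 of those labelled KO with PBS in RAW264.7 was the exception, with a mean correlation of 0.964 with its own group and 0.973 with WT, and the values of Il4ra, Ccl17, Ccl22 and Ccl24 called in comparisons with that group are given with and without it. The calls below of other genes between genotypes in RAW264.7 with PBS (Siglech, Lyz2, Il2rg, Tyk2, Irf4 and Il1rn) held without it. Of 8 macrophage markers, BMDM groups had all 8 and RAW264.7 groups 6 or 7 at a mean of 1 FPKM or more, and Mertk, a phagocytic receptor, had 0 FPKM in all 12 RAW264.7 libraries.

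The promoters of the markers that these data turn on are shown first. They are the 300 bases from 250 before to 50 after the annotated start in RefSeq (build GRCm38.p6, written in the sense of the gene), which held 7 of the 8 markers, and Ccl24 was not among them. Capitals mark matches, on either strand, to GGG and CC with 5 bases of any kind between them, a loose form of the NF-kB site (here called the kB motif), and to TTC and GAA with 4 bases between them, the spacing that STAT6 prefers (the STAT6 motif). Ccl22 (chr8:94745434-94745733, plus strand) and Ccl17 (chr8:94810203-94810502, plus strand) are the markers with the largest levels after LPS in RAW264.7, Il4ra (chr7:125552021-125552320, plus strand) is the receptor that differed between genotypes, and Retnla (chr16:48842359-48842658, plus strand) is a marker that was hardly detected at all.
Ccl22: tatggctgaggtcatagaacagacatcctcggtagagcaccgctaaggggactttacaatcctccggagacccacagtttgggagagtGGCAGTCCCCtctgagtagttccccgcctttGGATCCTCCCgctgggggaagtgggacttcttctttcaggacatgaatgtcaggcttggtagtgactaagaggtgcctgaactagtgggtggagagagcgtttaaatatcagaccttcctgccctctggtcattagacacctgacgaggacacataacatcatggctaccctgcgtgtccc
Ccl17: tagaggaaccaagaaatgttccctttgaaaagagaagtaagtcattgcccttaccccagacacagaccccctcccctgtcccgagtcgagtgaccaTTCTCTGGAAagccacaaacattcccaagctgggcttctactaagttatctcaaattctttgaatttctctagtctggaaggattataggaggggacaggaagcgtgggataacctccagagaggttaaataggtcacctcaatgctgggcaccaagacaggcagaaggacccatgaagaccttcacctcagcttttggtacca
Il4ra: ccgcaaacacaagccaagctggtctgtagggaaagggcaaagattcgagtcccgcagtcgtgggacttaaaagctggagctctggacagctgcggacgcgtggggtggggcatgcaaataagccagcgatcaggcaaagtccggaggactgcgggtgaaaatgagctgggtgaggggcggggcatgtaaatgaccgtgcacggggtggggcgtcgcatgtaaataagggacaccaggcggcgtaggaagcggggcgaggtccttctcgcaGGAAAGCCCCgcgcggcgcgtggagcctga
Retnla: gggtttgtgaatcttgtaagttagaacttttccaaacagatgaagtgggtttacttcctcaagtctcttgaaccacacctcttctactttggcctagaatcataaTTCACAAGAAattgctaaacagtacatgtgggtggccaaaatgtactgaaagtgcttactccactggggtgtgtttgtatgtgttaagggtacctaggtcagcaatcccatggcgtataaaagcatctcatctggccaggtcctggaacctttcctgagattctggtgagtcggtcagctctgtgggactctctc
The Ccl22 window held 2 matches to the kB motif, at -162 and -131 from the start, and none to the STAT6 motif. The Ccl17 window held TTCTCTGGAA, a match to the STAT6 motif at -154, and none to the kB motif. Retnla had the STAT6 match TTCACAAGAA at -145, and Il4ra had the kB match GGAAAGCCCC at +20. Over the 7 windows, 5 held the kB motif (Il4ra, Mrc1, Mgl2, Chil3 and Ccl22), a sequence found in 50.8% of 32851 promoters of the same length, and 2 held the STAT6 motif (Retnla and Ccl17), found in 6.95%. The shorter STAT spacing TTCNNNGAA was found in Chil3 and Ccl17 and in 8.3% of all promoters, the interferon element (GAAA repeated with 2 bases between) in none of the 7 and in 3.44%, the AP-1 site TGANTCA in none of the 7 and in 7.81%, and the TATA box TATAAA in Chil3 and Retnla and in 13.6%. No match overlapped a match to another of the 6 motifs.

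FPKM is scaled by gene length, so levels can be ordered between genes within a library, whereas the 2 cell types are in separate tables and their levels are set side by side without a test. In WT BMDMs with PBS the order was Mrc1 (120 FPKM), Il4ra (18.8), Chil3 (1.22), then Ccl24 and Mgl2 (0.470 each, overlapping), Ccl22 (0.183), Ccl17 (0.0300, from 1 count in 3 libraries) and Retnla (0 counts). In WT RAW264.7 cells with PBS no marker reached a mean of 1 FPKM, the highest was Ccl17 at 0.430, and each neighbour in the order overlapped the next. After LPS the chemokines led in RAW264.7, with Ccl22 at 196 FPKM and Ccl17 at 27.5 in WT and no other marker above 0.457. In BMDMs with LPS the order of WT libraries was Mrc1 and Il4ra (57.0 and 55.8, overlapping), Ccl22 (43.1), Ccl24 (4.04), Ccl17 (2.30), Chil3 (1.08), Mgl2 (0.133) and Retnla (0.0233). In KO BMDMs Ccl22 stood first at 103 FPKM, apart from Mrc1 at 63.6 and Il4ra at 41.8.

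**Figure D1:**
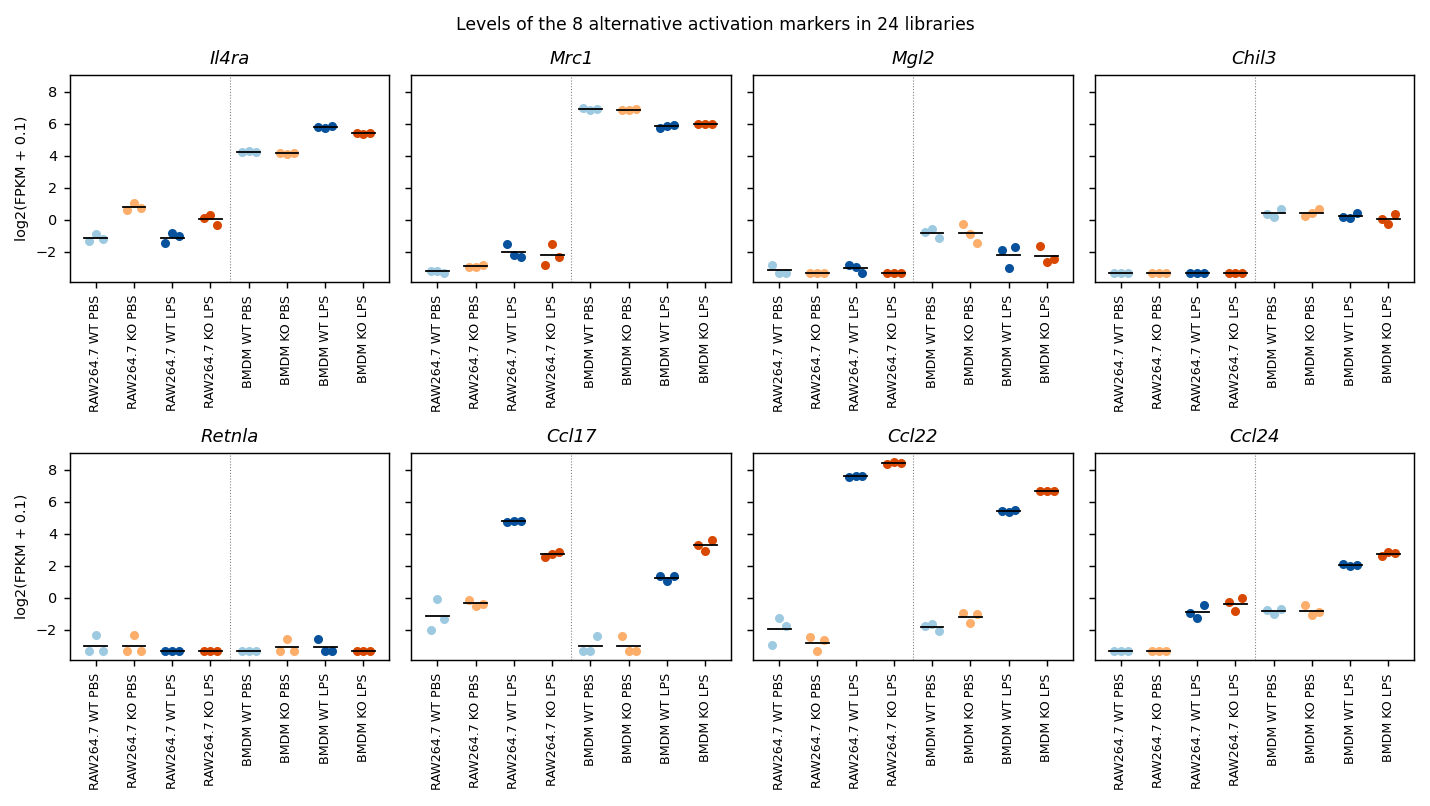
Level of each marker, as log2(FPKM + 0.1) on the vertical axis, in the 24 libraries (points), with the mean of each group of 3 libraries as a bar. RAW264.7 groups are on the left of the dotted line and BMDM groups on the right. Ccl22 rises from under 1 FPKM to 196 and 343 FPKM in RAW264.7 after LPS, while Mrc1 is above 50 FPKM only in BMDMs and Retnla lies at or near the lowest value throughout.

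A limma model of log2(FPKM + 0.1), with 1 fit per cell type, served to compare genotypes and treatments, and a gene was called at a Benjamini-Hochberg adjusted p under 0.05 over all genes tested and a fold change of at least 1.5. The added 0.1 makes a log2 fold change smaller than the true one for genes with low FPKM. Chil3 had 0 counts in all 12 RAW264.7 libraries and could not be tested there. Of the 8 markers, 1 was called between genotypes in RAW264.7 with PBS (Il4ra), where 8.55% of all genes tested were called, and 2 with LPS (Il4ra and Ccl17), against 17.3% of all genes. In BMDMs none was called with PBS, against 1.82% of all genes, and 3 with LPS (Ccl17, Ccl22 and Ccl24), against 4.76%. The count of 0 in BMDMs with PBS came from limma, 1 marker (Ccl22) had an unadjusted p under 0.05, and edgeR and DESeq2 on the counts called 0 as well. The effect of LPS differed between genotypes for 1 marker in each cell type, Ccl17, against 1.95% of all genes in RAW264.7 and 2.93% in BMDMs. LPS against PBS was called for 4 markers in WT RAW264.7 (18.3% of all genes) and for 4 in those labelled KO (22.1%), and for 6 markers in WT BMDMs (40.4%) and in KO BMDMs (38.9%).

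**Figure D2:**
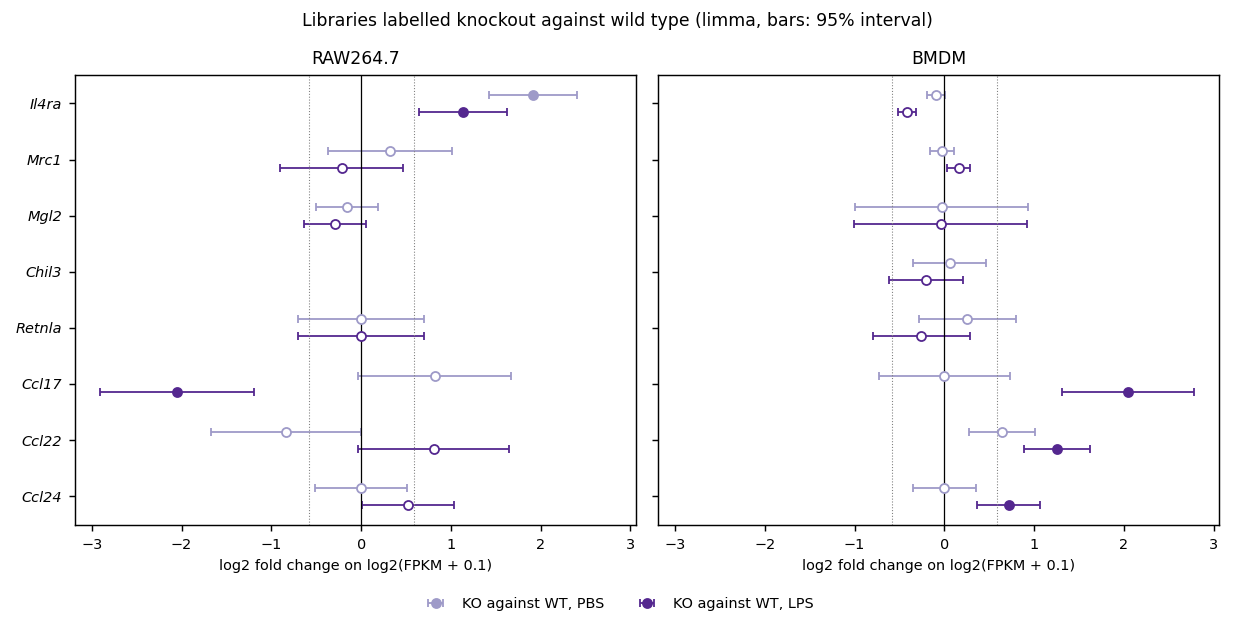
Log2 fold change of libraries labelled KO against WT with PBS (light) and with LPS (dark) in RAW264.7 (left) and BMDMs (right), from limma, with its 95% interval as a bar. Filled points were called, open points were not, and dotted lines mark a fold change of 1.5. Ccl17 with LPS lies at -2.05 in RAW264.7 and at 2.05 in BMDMs, and Il4ra lies above 0 in RAW264.7 and below it in BMDMs.

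Il4ra (ENSMUSG00000030748, chromosome 7, 125151292 to 125178646 on the plus strand) encodes the alpha chain shared by the receptors of IL-4 and IL-13. This position and those of the genes below are taken from the deposited tables, whose build is not named there and is not that of the promoters. In RAW264.7 it was low, with 0.29, 0.44 and 0.34 FPKM in WT with PBS and 1.40, 1.92 and 1.54 in the libraries labelled KO. With LPS it was 0.26, 0.45 and 0.39 in WT and 0.96, 1.14 and 0.69 in those labelled KO. Under both treatments all 3 libraries labelled KO lay above all 3 WT libraries. On the log2 scale the libraries labelled KO were higher by 1.91 with PBS (standard error 0.22, adjusted p = 0.000499) and by 1.14 with LPS (standard error 0.22, adjusted p = 0.00579), from 455 against 93 counts and 208 against 94 counts over the group, and with a pseudocount of 1 the second value was 0.49, under the fold change needed for a call. Without replicate 1 of the PBS libraries labelled KO the value with PBS was 2.01 (adjusted p = 0.000289). LPS against PBS in WT RAW264.7 gave a log2 fold change of 0.02 (95% interval -0.47 to 0.51). In those labelled KO it was lower after LPS by limma (-0.75, standard error 0.22, adjusted p = 0.0274, and from 0.00733 to 0.131 over the alternatives). That call was lost with median-ratio scaling of the libraries (-0.51, adjusted p = 0.131), with edgeR and with DESeq2, and when replicate 2 or 3 with PBS or replicate 1 or 3 with LPS was left out (adjusted p 0.0539 to 0.0984). Without replicate 1 with PBS it was kept (-0.85, adjusted p = 0.0290).

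In BMDMs Il4ra was abundant and the KO libraries were the lower ones. WT libraries had 19.0, 19.1 and 18.3 FPKM with PBS and 56.2, 53.7 and 57.6 with LPS, and KO libraries had 17.8, 17.3 and 17.9 with PBS and 42.2, 41.2 and 42.2 with LPS. LPS raised Il4ra in both genotypes, by 1.56 (standard error 0.04, adjusted p = 1.12e-09) in WT and 1.24 (standard error 0.04, adjusted p = 6.06e-09) in KO on the log2 scale, values that became 2.36 and 1.93 with median-ratio scaling. With LPS every KO library was below every WT library, at a log2 fold change of -0.41 (95% interval -0.51 to -0.31, adjusted p = 0.000236), under the fold change needed for a call. The genotype difference was -0.09 with PBS (95% interval -0.19 to 0.01), and the interaction was -0.32 (adjusted p = 0.0155), also under that fold change. With median-ratio scaling these 3 values were -0.57 with LPS, -0.13 with PBS and -0.44 for the interaction, and none reached the fold change of 1.5. Il4ra overlaps the predicted gene Gm44876 on the opposite strand, which had 0 counts in RAW264.7 and 7 over the 12 BMDM libraries.

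Library scaling matters for LPS in BMDMs. Among genes at 1 FPKM or more the median log2 fold change of LPS against PBS was -0.76 in WT and -0.66 in KO BMDMs, against -0.22 in either group of RAW264.7, and KO against WT with LPS had a median of 0.13 in BMDMs and 0.00 in RAW264.7. Median-ratio scaling brought each of these medians to between -0.02 and 0.04. For the markers the changes after LPS in BMDMs are therefore also given on that scale.

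Mrc1 (ENSMUSG00000026712, chromosome 2, 14234203 to 14336868, plus strand) and Mgl2 (ENSMUSG00000040950, chromosome 11, 70021155 to 70028376, plus strand) encode C-type lectins of the macrophage surface, the mannose receptor and a galactose-binding lectin. Mrc1 had 124, 114 and 121 FPKM in WT BMDMs with PBS and 117, 113 and 123 in KO, and 53.7, 57.0 and 60.3 in WT with LPS and 64.1, 62.9 and 63.9 in KO. Genotypes overlapped with PBS (log2 fold change -0.03, 95% interval -0.16 to 0.10), and with LPS KO libraries were above WT by 0.16 (95% interval 0.03 to 0.29, adjusted p = 0.0951), a difference of 0.00 with median-ratio scaling. LPS lowered the FPKM by 1.07 (standard error 0.06, adjusted p = 9.71e-08) in WT and by 0.89 (standard error 0.06, adjusted p = 4.73e-07) in KO on the log2 scale. With median-ratio scaling the fall was -0.27 in WT and -0.19 in KO, adjusted p = 0.00406 and 0.0251, and no longer passed the fold change of 1.5. In RAW264.7 Mrc1 was low, with 2 and 10 counts over the 3 libraries in WT and in those labelled KO with PBS and 40 and 32 with LPS. The WT ratio of LPS to PBS was 20.3 (95% exact counting interval 5.27 to 174), called by limma (adjusted p = 0.0151) but not without PBS replicate 3 or LPS replicate 1 (adjusted p = 0.0509 and 0.0572), and LPS replicate 1 held 20 of the 40 counts. The ratio between genotypes with PBS was 4.55 (95% exact counting interval 0.970 to 42.7). In those labelled KO LPS against PBS was not called by limma (0.68, adjusted p = 0.141) but was by edgeR (2.18, adjusted p = 0.0164) and by limma without LPS replicate 1 (0.99, adjusted p = 0.0293). The intervals of ratios cover counting error only. The microRNA gene Mir511 lies within Mrc1 on the same strand and had 0 counts in RAW264.7 and 2 in BMDMs.

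Mgl2 was low in BMDMs, with 0.49, 0.57 and 0.35 FPKM in WT and 0.74, 0.44 and 0.27 in KO with PBS. With LPS it was 0.17, 0.02 and 0.21 in WT and 0.22, 0.06 and 0.08 in KO. All LPS libraries were below the PBS libraries of their genotype, and the genotypes overlapped under both treatments (log2 fold change -0.03, 95% interval -0.99 to 0.94, with PBS). The fall with LPS was called in WT and in KO (log2 fold change -1.38 and -1.40, standard error 0.43, adjusted p = 0.0212 and 0.0206). It rested on 65 and 64 counts with PBS and 19 and 16 with LPS. Median-ratio scaling gave -0.86 and -0.93 with adjusted p = 0.178 and 0.150. In WT it was not called without PBS replicate 1 or 2 or LPS replicate 2 (adjusted p 0.0563 to 0.0735), and in KO without PBS replicate 1 or LPS replicate 2 or 3 (adjusted p 0.0656 to 0.0785). RAW264.7 had 3 counts of Mgl2 over its 12 libraries. Its close relative Clec10a, which shares sequence with it, was higher in BMDMs, with 6.71 and 7.75 FPKM in WT and KO with PBS and 1.19 and 1.03 with LPS, and reads of the pair may have been split between them.

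Chil3 (ENSMUSG00000040809, chromosome 3, 106054870 to 106074880, minus strand) and Retnla (ENSMUSG00000061100, chromosome 16, 48662914 to 48664824, plus strand) encode secreted proteins, the chitinase-like protein Ym1 and the resistin-like molecule FIZZ1, which mark IL-4-treated mouse macrophages. Chil3 had a mean of 1.22 FPKM in WT and 1.27 in KO BMDMs with PBS, and 1.08 and 0.937 with LPS, with 27 to 53 counts per library. The groups overlapped between genotypes and between treatments. The genotype difference was 0.06 with PBS (95% interval -0.35 to 0.47) and -0.21 with LPS (95% interval -0.61 to 0.20). The direction of its LPS change in WT followed the scaling, from -0.14 (adjusted p = 0.561) on deposited FPKM to 0.60 (adjusted p = 0.0229) with median-ratio scaling, and in KO from -0.41 (adjusted p = 0.0933) to 0.22 (adjusted p = 0.380). Its near-copy Chil4 was at 0 in all 24 libraries. In RAW264.7 the 0 counts of Chil3 allow at most 0.0393 to 0.0496 FPKM in a group, the value of 3 counts over its 3 libraries. Retnla had 1 count in 4 libraries, 2 of RAW264.7 and 2 of BMDMs, and 0 in the other 20, and at this depth no difference was detectable.

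Ccl17 (ENSMUSG00000031780), Ccl22 (ENSMUSG00000031779) and Ccl24 (ENSMUSG00000004814, chromosome 5, 135598791 to 135601903, minus strand) are the chemokines of the set. CCL17 and CCL22 attract type 2 helper and regulatory T cells through CCR4, and CCL24 attracts eosinophils through CCR3. All 3 were low with PBS and rose with LPS in both cell types and genotypes.

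Ccl17 with LPS was lower in the libraries labelled KO in RAW264.7 and higher in KO in BMDMs. The RAW264.7 direction rests on a label that the Olfml3 RNA level goes against, for a reason that was not tested. If the RAW264.7 labels were exchanged, Ccl17 would be higher in KO in both cell types. WT RAW264.7 had 27.2, 27.9 and 27.5 FPKM with LPS, and those labelled KO had 5.85, 6.64 and 7.31. BMDMs with LPS had 2.51, 1.95 and 2.44 in WT and 9.78, 7.67 and 12.4 in KO. In both cell types the genotypes did not overlap, and the difference between the cell types was not tested, since their tables were normalised separately. The log2 fold change was -2.05 in RAW264.7 (standard error 0.38, adjusted p = 0.00506) and 2.05 in BMDMs (standard error 0.32, adjusted p = 0.00206). With edgeR it was -2.08 (adjusted p = 8.19e-06) and 1.95 (adjusted p = 3.73e-08). In BMDMs the call was lost with a pseudocount of 0.01 (adjusted p = 0.267) and with TPM (adjusted p = 0.0613), where adjusted p ranged from 5.56e-19 to 0.267 over the alternatives.

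With PBS Ccl17 was close to the detection limit. WT RAW264.7 libraries had 0.15, 0.84 and 0.30 FPKM from 1, 7 and 2 counts, and those labelled KO had 0.83, 0.61 and 0.68 from 7, 5 and 5. BMDMs had 1 count in WT and 1 in KO over 3 libraries each. The genotypes overlapped (log2 fold change 0.82, 95% interval -0.04 to 1.67, in RAW264.7), although without WT replicate 2 the value in RAW264.7 was 1.34 (adjusted p = 0.00555). LPS raised Ccl17 in WT RAW264.7 by 5.93 (standard error 0.38, adjusted p = 2.18e-06) and in those labelled KO by 3.06 (standard error 0.38, adjusted p = 0.000170), or by 3.16 without the discordant PBS replicate 1. Without that replicate the genotype difference with PBS was 0.71 (adjusted p = 0.287). In BMDMs the ratio of LPS to PBS was 78.1 in WT (95% exact counting interval 13.6 to 3120) and 310 in KO (55.2 to 12300). On the log2 scale with median-ratio scaling the rise was 4.76 in WT and 6.67 in KO. The interaction was -2.87 in RAW264.7 (standard error 0.54, adjusted p = 0.0268) and 2.05 in BMDMs (standard error 0.46, adjusted p = 0.0297). Over the alternatives adjusted p ran from 0.000393 to 0.0849 for the former and from 0.000469 to 0.863 for the latter. The RAW264.7 interaction held with edgeR (-2.66, adjusted p = 0.0107) and without the discordant replicate 1 labelled KO (-2.76, adjusted p = 0.0388), but not when WT PBS replicate 3, replicate 2 or 3 labelled KO with PBS, or any of the 6 LPS libraries was left out (adjusted p 0.0502 to 0.0737). The BMDM interaction was not called by edgeR (1.91, adjusted p = 0.650) or DESeq2 (1.89, adjusted p = 0.528), nor without KO PBS replicate 2 or 3, WT LPS replicate 2 or 3 or KO LPS replicate 1 or 3 (adjusted p 0.0538 to 0.0719).

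Ccl22 was the most abundant of the chemokines after LPS. It had 190, 201 and 198 FPKM in WT RAW264.7 with LPS and 334, 356 and 340 in those labelled KO. BMDMs had 43.2, 40.9 and 45.3 in WT and 101, 104 and 104 in KO. The libraries labelled KO were above the WT libraries in both cell types, and with the RAW264.7 labels exchanged the directions would be opposite. In BMDMs the log2 fold change was 1.26 (standard error 0.16, adjusted p = 0.000701), and 1.10 with median-ratio scaling (adjusted p = 0.00113). In RAW264.7 it was 0.81 with a standard error of 0.37 and was not called (adjusted p = 0.156), where limma takes a common spread for the gene from all 12 libraries and those with PBS ranged from 0 to 0.32 FPKM. The counts behind it were 29631 labelled KO and 19144 WT, and edgeR called it (0.78, adjusted p = 0.00120), as did limma on the LPS groups alone (0.81, adjusted p = 0.000683), with adjusted p from 2.50e-25 to 0.592 over the alternatives. With PBS the counts were 19 in WT and 5 labelled KO in RAW264.7 (log2 fold change -0.84, 95% interval -1.68 to 0.00, adjusted p = 0.169), a fall that passed with edgeR (-2.00, adjusted p = 0.0353), with DESeq2 (-2.10, adjusted p = 0.0144) and without WT replicate 1 (-1.32, adjusted p = 0.0140), but not without replicate 1 labelled KO (-1.01, adjusted p = 0.117). In BMDMs with PBS all KO libraries, at 0.42, 0.23 and 0.39 FPKM, were above the WT libraries, at 0.19, 0.22 and 0.14 (log2 fold change 0.64, adjusted p = 0.0688), and without KO replicate 2 the value was 0.84 (adjusted p = 0.00454). LPS raised Ccl22 by 9.59 in WT RAW264.7, 11.24 in those labelled KO, 7.26 in WT BMDMs and 7.88 in KO BMDMs on the log2 scale (adjusted p at most 7.34e-08). With median-ratio scaling the BMDM values were 7.93 and 8.47, and without replicate 1 of the PBS libraries labelled KO that of RAW264.7 was 11.4. The interaction did not pass in either cell type by limma (1.64, adjusted p = 0.234, in RAW264.7 and 0.62, adjusted p = 0.181, in BMDMs), and in RAW264.7 it passed with edgeR (2.78, adjusted p = 0.0471) and without WT PBS replicate 1 (2.13, adjusted p = 0.0164). With a pseudocount of 1 limma passed it in RAW264.7 (0.98, adjusted p = 0.00102) and in BMDMs (1.05, adjusted p = 4.24e-05).

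Ccl22 and Ccl17 are neighbours on chromosome 8. By the coordinates of the deposited tables Ccl22 runs from 95472218 to 95478327 and Ccl17 from 95537081 to 95538664, both on the plus strand and 58753 bases apart, with the chemokine gene Cx3cl1 and the pseudogene Gnb1-ps3 between them. The FPKM ratio of Ccl22 to Ccl17 with LPS was 6.99 to 7.19 in WT RAW264.7 and 46.5 to 57.1 in those labelled KO, while it was 17.2 to 21.0 in WT BMDMs and 8.42 to 13.5 in KO BMDMs. The ratio was thus higher in the libraries labelled KO in RAW264.7 and lower in KO in BMDMs, without overlap in either. Cx3cl1 had a mean of 1.64 FPKM in WT and 1.10 in those labelled KO in RAW264.7 with LPS, and 1.36 in WT and 3.93 in KO BMDMs. The windows of both promoters printed above differed in the motifs they held, with the kB motif in that of Ccl22 alone and the STAT6 motif in that of Ccl17 alone.

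**Figure D3:**
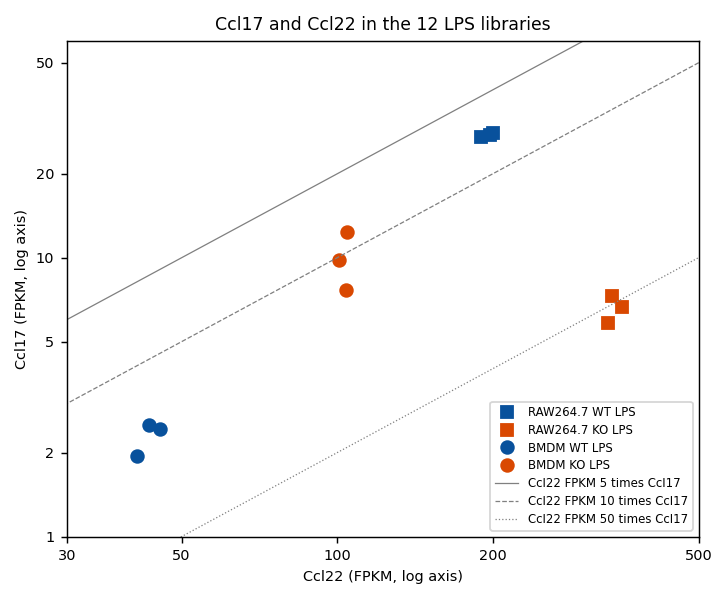
Ccl17 against Ccl22 in the 12 LPS libraries, in FPKM on 2 log axes, with RAW264.7 as squares, BMDMs as circles, WT in blue and labelled KO in orange. Grey lines join points at which Ccl22 is 5, 10 or 50 times Ccl17. The RAW264.7 libraries labelled KO lie to the right of and below WT, whereas the KO BMDMs lie to the right of and above WT.

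Ccl24 had 0 counts in all 6 RAW264.7 libraries with PBS. With LPS it had 0.42, 0.31 and 0.64 FPKM in WT (25 counts) and 0.73, 0.47 and 0.88 in those labelled KO (33 counts). This is at least 8.47-fold higher in WT and at least 13.9-fold higher in those labelled KO, against 3 counts over the group, and both changes were called (adjusted p = 3.00e-05 and 6.05e-06, the latter 4.03e-05 without PBS replicate 1). The genotypes overlapped with LPS (log2 fold change 0.52, adjusted p = 0.135), and the difference passed without WT LPS replicate 3 or labelled KO LPS replicate 2 (0.75 and 0.74, adjusted p = 0.0426 and 0.0446). In BMDMs Ccl24 was at 0.470 and 0.477 FPKM in WT and KO with PBS. With LPS it was 4.16, 3.83 and 4.14 in WT and 5.95, 7.24 and 6.99 in KO. All KO libraries with LPS were above all WT libraries, at a log2 fold change of 0.72 (standard error 0.16, adjusted p = 0.0108), which became 0.57 (adjusted p = 0.0332) with median-ratio scaling and 0.58 (adjusted p = 0.00181) with DESeq2, just under the fold change of 1.5. LPS raised it by 2.87 in WT and 3.58 in KO (standard error 0.16 each, adjusted p = 1.02e-07 and 2.44e-08), or by 3.59 and 4.19 with median-ratio scaling. The interaction was 0.71 (adjusted p = 0.101), and 0.89 without KO PBS replicate 1 (adjusted p = 0.0245).

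**Figure D4:**
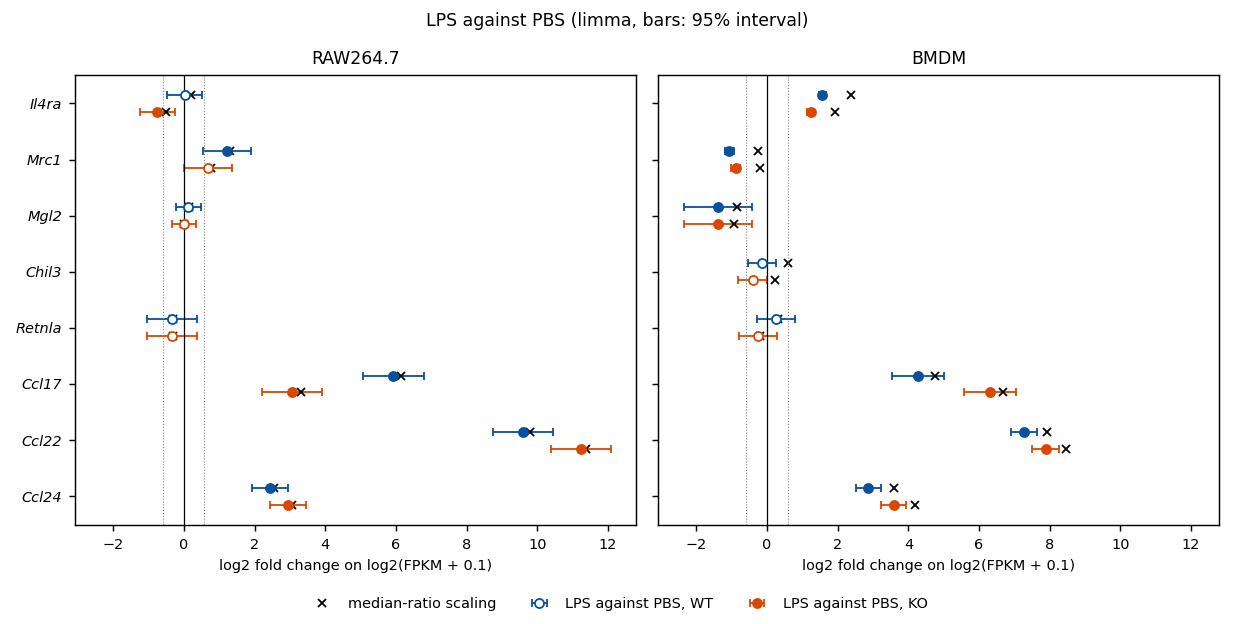
Log2 fold change of LPS against PBS in WT (blue) and in libraries labelled KO (orange) in RAW264.7 (left) and BMDMs (right), from limma on deposited FPKM, with its 95% interval as a bar and filled points where called. Black crosses give the value with median-ratio scaling, which in BMDMs moves Mrc1 from -1.07 to -0.27 in WT and Chil3 from -0.14 to 0.60, and dotted lines mark a fold change of 1.5. The 3 chemokines lie to the right of 0 in all 4 comparisons.

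Transcripts of other cell types were read beside these results, because dendritic cells also make CCL17 and CCL22. In RAW264.7 the 8 dendritic cell markers summed to 1.24 to 1.44 FPKM in WT and 8.81 to 10.3 in those labelled KO with PBS, and to 1.65 to 2.14 and 4.34 to 5.08 with LPS. Siglech, a plasmacytoid dendritic cell lectin, made up most of the PBS sum, at 1.12 FPKM in WT and 9.21 in those labelled KO (log2 fold change 2.94, adjusted p = 9.78e-05), and Cd209a and Ccr7 were at 0 in all 12 libraries. It was the 1 of 6 dendritic cell markers tested that was called with PBS, where 8.55% of all genes were called. With LPS 3 of 6 were called, against 17.3% of all genes, and all were higher in those labelled KO. They were Siglech (1.92 against 0.387 FPKM) and, at under 1 FPKM, Xcr1 (0.677 against 0.253) and Zbtb46 (0.183 against 0.0800). The macrophage markers summed to 2916 to 2947 FPKM in WT and 1055 to 1286 in those labelled KO with PBS, and to 2729 to 2871 and 829 to 863 with LPS. Lyz2, the gene of lysozyme, carried most of that difference, at 2052 FPKM in WT and 317 in those labelled KO with PBS (log2 fold change -2.72, adjusted p = 3.56e-06). In BMDMs the dendritic cell markers summed to 10.5 to 11.3 in WT and 11.6 to 12 in KO with PBS, and to 7.02 to 7.08 and 9.18 to 9.88 with LPS. Itgax, which macrophages express too, had means of 10.5 and 11.4 in WT and KO with PBS and of 5.99 and 8.33 with LPS, while Flt3, Zbtb46, Cd209a, Xcr1 and Clec9a had means of 0.193 FPKM or less in every BMDM group. The macrophage markers of BMDMs summed to 14760 to 15181 FPKM in WT and 16526 to 17716 in KO with PBS, and to 11850 to 12065 and 12415 to 12691 with LPS, so that the KO sums were the higher ones. Of these markers Fcgr1, the high-affinity IgG receptor, was the 1 called, where 1.82% of all genes were called with PBS and 4.76% with LPS. Fcgr1 was lower in KO (log2 fold change -1.15, adjusted p = 6.49e-06, with PBS and -0.64, adjusted p = 0.000171, with LPS). With median-ratio scaling 2 of the 8 macrophage markers were called lower in KO with LPS. Of the lymphocyte, granulocyte and mast cell, and fibroblast markers, none reached 1 FPKM in RAW264.7, and Cd4, S100a8 and S100a9 did so in BMDMs. No gene of these lists was called between genotypes on deposited FPKM, against the shares of all genes given above. With median-ratio scaling and LPS 1 lymphocyte marker was lower in each cell type and 1 fibroblast marker in BMDMs. The part of these transcripts in the differences of Il4ra, Ccl17, Ccl22 and Ccl24 was not tested, and in bulk RNA fewer cells of a type and less RNA per cell cannot be told apart.

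The other genes of IL-4 and IL-13 signalling were taken as a list of 13, of which 12 had an FPKM above 0 in each table. In RAW264.7 2 were higher and 1 lower in those labelled KO with PBS, and 2 higher and 2 lower with LPS, where 8.55% and 17.3% of all genes were called, with a median log2 fold change of 0.06 and -0.03 against 0.02 and 0.00 over all genes. Il2rg, the common gamma chain that pairs with the Il4ra product, was higher at 19.2 against 10.0 FPKM with PBS (log2 fold change 0.93, adjusted p = 0.000135) and at 63.0 against 35.5 with LPS (0.83, adjusted p = 0.000210). Tyk2, a Janus kinase of the IL-13 receptor, was higher at 12.6 against 7.15 FPKM with PBS (0.79, adjusted p = 0.00405) and at 21.1 against 13.4 with LPS (0.65, adjusted p = 0.00690). Socs1, an inhibitor of Janus kinases, was lower with LPS, at 2.03 against 3.40 FPKM (-0.72, adjusted p = 0.0129). Stat6 itself was at 36.8 and 37.1 FPKM with PBS (log2 fold change -0.01, adjusted p = 0.992). In BMDMs 1 of the list was higher and none lower in KO with PBS, a call that median-ratio scaling removed, and 1 was higher and 1 lower with LPS, against 1.82% and 4.76% of all genes. Socs1 was lower at 15.6 against 32.4 FPKM (-1.04, adjusted p = 0.00531), and Irs2, an adaptor of the IL-4 receptor, was higher at 1.06 against 0.487 (0.98, adjusted p = 0.000236).

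LPS against PBS raised 6 genes of the list and lowered 1 in WT RAW264.7 (18.3% of all genes called) and raised 4 and lowered 1 in those labelled KO (22.1%). In BMDMs 6 were higher and 3 lower in WT (40.4%) and in KO (38.9%), which became 8 and 3 in WT and 8 and 2 in KO with median-ratio scaling. The LPS values of list genes below are on deposited FPKM. Cish, a feedback inhibitor of cytokine receptors, rose from 0.00333 to 5.14 FPKM in WT RAW264.7 and from 0.05 to 3.55 in WT BMDMs, and Socs1 from 0.163 to 3.40 and from 0.173 to 32.4. In BMDMs Il13ra1, the IL-13 receptor chain, rose in WT from 6.76 to 34.6 FPKM (log2 fold change 2.34, adjusted p = 7.93e-10) and in KO from 6.46 to 28.4 (2.12, adjusted p = 1.71e-09). Il4, the cytokine itself, was detected in BMDMs at 3.06 FPKM in WT and 3.68 in KO with PBS and fell with LPS to 0.353 and 0.500 (-2.81 and -2.65, adjusted p = 2.92e-08 and 5.23e-08), a fall of -2.11 and -2.02 with median-ratio scaling.

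**Figure D5:**
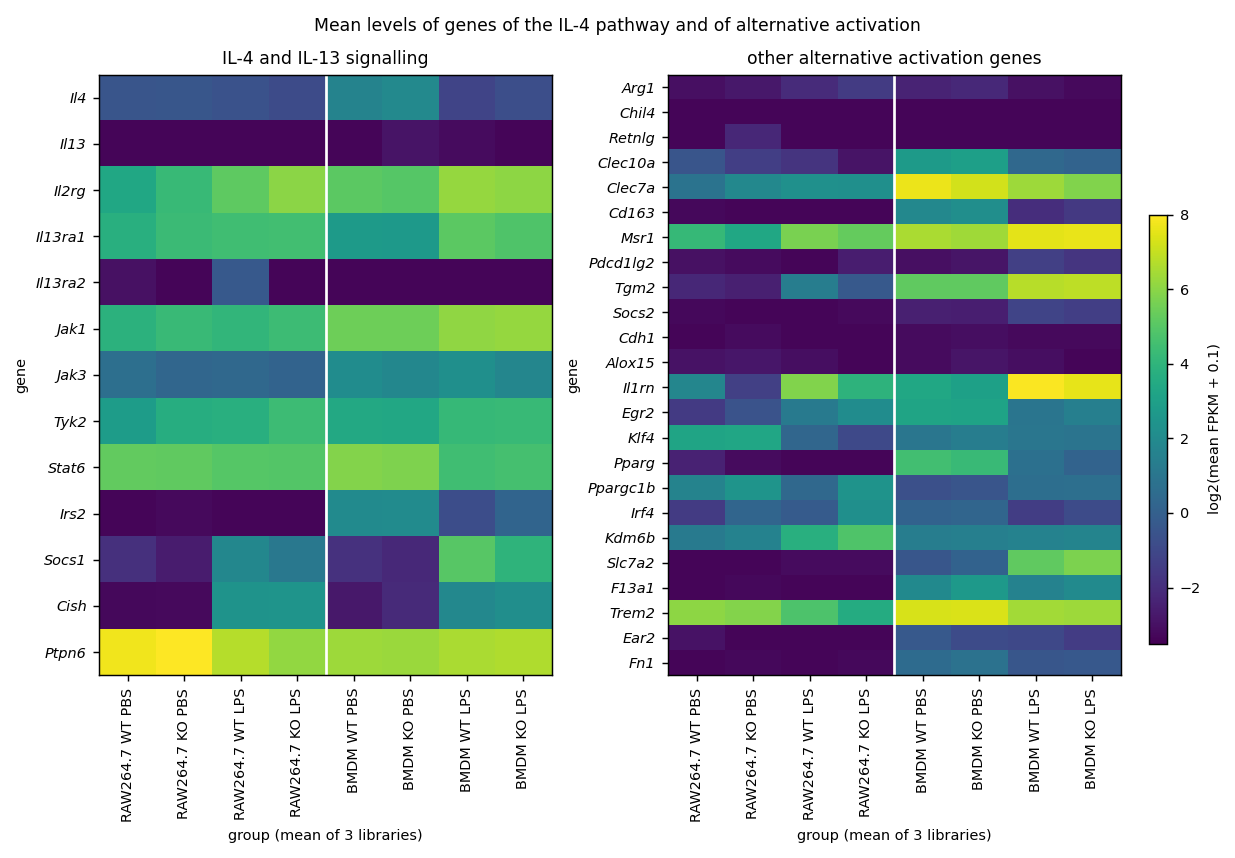
Mean level of the 13 genes of IL-4 and IL-13 signalling (left) and of 24 other genes of alternative activation (right) in the 8 groups, as log2(mean FPKM + 0.1) on the colour scale, with RAW264.7 left and BMDMs right of the white line. Cish and Socs1 brighten with LPS in both cell types, and Pparg and Cd163 darken with LPS in BMDMs.

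Of 24 other genes linked to alternative activation, 23 could be tested in RAW264.7 and 22 in BMDMs. Between genotypes 2 were higher and 3 lower in RAW264.7 with PBS, 3 higher and 4 lower with LPS (8.55% and 17.3% of all genes called), and in BMDMs 1 was higher with PBS and 1 lower with LPS (1.82% and 4.76%). With median-ratio scaling 2 were lower in BMDMs with LPS. Irf4, a transcription factor downstream of STAT6, was higher in RAW264.7 labelled KO, at 1.11 against 0.250 FPKM with PBS (log2 fold change 1.78, adjusted p = 0.00552) and 4.597 against 0.770 with LPS (2.49, adjusted p = 0.000524). Il1rn, the gene of the IL-1 receptor antagonist, was lower, at 0.297 against 3.36 FPKM with PBS (-3.12, adjusted p = 6.71e-07) and 14.98 against 57.3 with LPS (-1.93, adjusted p = 1.39e-05). In BMDMs F13a1, which encodes coagulation factor XIII A, was higher in KO with PBS at 6.44 against 3.82 FPKM (0.74, adjusted p = 0.000315), and Pparg, a nuclear receptor of alternative activation, was lower with LPS at 1.03 against 1.60 (-0.60, adjusted p = 0.00867). LPS moved the list in both directions, with 7 higher and 5 lower in WT RAW264.7 (18.3% of all genes called) and 7 and 3 in those labelled KO (22.1%). In BMDMs it was 7 higher and 8 lower in WT (40.4%) and 7 and 10 in KO (38.9%). With median-ratio scaling the BMDM counts became 9 higher and 5 lower in WT and 8 higher and 6 lower in KO. In WT BMDMs Il1rn rose from 10.0 to 247 FPKM and Slc7a2, an arginine transporter, from 0.637 to 36.9, while Pparg fell from 22.6 to 1.60 and Cd163, a haemoglobin scavenger receptor, from 3.57 to 0.153. All 4 were called in the same direction with median-ratio scaling (log2 fold changes of 5.40, 6.40, -2.96 and -3.25). Arg1, arginase 1, had a mean of 0.257 FPKM or less in every group.

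The receptors of the 3 chemokines were mostly undetected. Of 5 receptors Ccr3 alone was above 1 FPKM, in BMDMs, where it was lower in KO with PBS at 6.27 against 10.5 FPKM (log2 fold change -0.74, adjusted p = 0.000578) and with LPS at 3.42 against 5.31 (-0.61, adjusted p = 0.000630). LPS lowered it on deposited FPKM by 0.98 in WT and by 0.85 in KO, and neither was called with median-ratio scaling.

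Genes of classical activation showed that LPS acted in all groups. Of 12, all 12 rose in WT RAW264.7, in WT BMDMs and in KO BMDMs and 11 in RAW264.7 labelled KO, with median log2 fold changes of 6.92, 8.35, 9.20 and 6.54 against -0.05, -0.30, -0.28 and -0.07 over all genes. In the same order 18.3%, 40.4%, 38.9% and 22.1% of all genes were called, in either direction. Between genotypes with LPS 1 was higher and 3 lower in RAW264.7, where 17.3% of all genes were called. Nos2, inducible nitric oxide synthase, was at 4.63 against 23.3 FPKM (log2 fold change -2.32, adjusted p = 3.76e-05) and Il6 at 100 against 24.8 (2.01, adjusted p = 1.70e-05). In BMDMs 2 were higher and 1 lower, against 4.76% of all genes called. There Il1b was at 1609 against 723 FPKM (1.16, adjusted p = 0.000128) and Cd86, a costimulatory molecule, at 25.4 against 39.7 (-0.64, adjusted p = 0.000106).

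The genes whose level profile over the 12 libraries of a cell type lay closest to a marker were found by the root mean square difference of the centred log2(FPKM + 0.1) values, among genes with a mean of at least 1 FPKM in some group. In RAW264.7 these were Mx1, Ifi209 and Ifi204 for Ccl17 (differences of 0.515 to 0.625, beside a root mean square of 2.41 for Ccl17 itself), Il1a, Acod1 and Il1b for Ccl22 (0.447 to 0.670, beside 5.24) and Rasal1, Arhgap15 and Gnat2 for Il4ra (0.243 to 0.305, beside 0.841). In BMDMs they were Cxcl1, Lcn2 and Cxcl2 for Ccl17 (0.437 to 0.492, beside 2.76), Socs3, Cd40 and Adora2a for Ccl22 (0.514 to 0.602, beside 3.82), Jdp2, Tnn and Slc7a11 for Ccl24 (0.148 to 0.221, beside 1.64), Prkx, Socs7 and Lap3 for Il4ra (0.0564 to 0.0603, beside 0.717) and Cant1, Cds2 and Tmf1 for Mrc1 (0.0449 to 0.0463, beside 0.495). No gene lay close to Chil3, for which the smallest difference was 0.166 beside its own 0.248. The profiles share libraries, so these are descriptions, and the nearest genes of Ccl17 and of Ccl22 were other genes in RAW264.7 than in BMDMs.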

How the data were processed

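RNA-seq of poly(A) RNA, read as 150 bases from both ends, was analysed in 24 libraries, 3 in each of 8 groups. Groups were taken from the sample titles, because the genotype tag contradicted the title in 12 libraries. The 2 cell types have a table each, in which the authors deposited raw counts and FPKM values of every gene. The deposited FPKM equalled the count divided by exonic gene size and by the total of the library, with the usual factors, to within 1% for 99.88% (RAW264.7) and 99.51% (BMDMs) of the values from over 50 counts. The labels name the mouse build mm10, the coordinates in the tables differ from GRCm38, and which aligner and counter were used is not given in the sources used here. From the annotation of the genes the identifier, symbol, exonic size, position and strand were used, and any other annotation columns were not. Of 56691 genes, 2639 had no symbol and stayed in the tests.

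Each cell type was fitted with limma 3.58.1 in R 4.3.3 on log2(FPKM + 0.1), with 4 group means, over all genes above 0 FPKM in at least 1 library. Moderation had no intensity trend (8 residual and 1.43 or 1.28 prior degrees of freedom), tests were two-sided and p-values were adjusted by Benjamini-Hochberg over all genes of a comparison. A gene was called where the adjusted p was below 0.05 and the fold change reached 1.5. There were 5 comparisons per cell type: genotype with PBS, genotype with LPS, LPS in each genotype, and the interaction. Alternatives were pseudocounts of 0.01 and 1, TPM, median-ratio scaling, an intensity trend, filters of 0.1 or 1 FPKM in 3 libraries, edgeR 4.0.16 with and without its filter, DESeq2 1.42.0, a replicate block, fits of the compared groups alone, adjusted p alone, and leaving out each library. The fits were tested on simulated data.

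The 8 markers and the gene lists were chosen with earlier results of these data known. The 8 markers were named in every comparison. From each list, named genes came from up to 4 called genes per comparison with the largest fold change and a mean of at least 1 FPKM in either group, together with genes at 0 or near it given by their level. Stat6, Arg1, Clec10a, Chil4, Cx3cl1, Gnb1-ps3, Gm44876 and Mir511 were added after their values were seen. Precision is limited by 3 libraries per group.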

Additional observations from a re-analysis of the deposited data

Results flagged for a closer look

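The effect of LPS on Ccl17 differed between genotypes in both cell types by the interaction term of limma, with a log2 difference of -2.87 (adjusted p = 0.0268) in RAW264.7 and 2.05 (adjusted p = 0.0297) in BMDMs. Over the alternatives the adjusted p ranged from 0.000393 to 0.0849 for RAW264.7, and for BMDMs from 0.000469 to 0.863, and the PBS groups behind it held 10 and 17 counts in RAW264.7 and 1 and 1 in BMDMs. In BMDMs both PBS means were 0.03 FPKM, so the interaction repeats the genotype difference with LPS, also 2.05. There edgeR and DESeq2 did not call the interaction (adjusted p = 0.650 and 0.528).

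For 5 effects every library moved one way in RAW264.7 and the opposite way in BMDMs, where the cell types come from tables normalised separately and the difference was not tested. For KO against WT the BMDM value minus the RAW264.7 value was -2.00 on the log2 scale for Il4ra with PBS, -1.55 for Il4ra with LPS and 4.10 for Ccl17 with LPS. The BMDM values of Il4ra were themselves small, at -0.09 with PBS and -0.41 with LPS, and neither was called. For LPS against PBS it was -2.29 for Mrc1 in WT, where Mrc1 had 42 counts over the 6 RAW264.7 libraries, and 1.99 for Il4ra in KO, where the fall in RAW264.7 was itself lost under 13 alternatives. Olfml3 RNA went against the label in the RAW264.7 libraries of these comparisons, and whether the labels were exchanged was not tested. With the RAW264.7 labels exchanged, Il4ra under both treatments would be lower in KO in both cell types and Ccl17 with LPS higher in KO in both, so these 3 effects would not be opposite. The same exchange would make Ccl22 with LPS opposite, at means of 343 labelled KO against 196 FPKM in RAW264.7 and 103 against 43.1 in BMDMs. Ccl24 with LPS would also turn opposite, at log2 fold changes of 0.52 in RAW264.7 (not called) and 0.72 in BMDMs.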

How the results depend on the processing

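Of the 28 called results of single markers, 470 of 537 values under alternative settings stayed past the threshold in the same direction, 67 did not and 0 changed sign. Of the 47 results not called, 31 of 900 values passed in the same direction and 3 others passed with the opposite sign. These 3 were Chil3 in WT BMDMs with LPS against PBS, at -0.14 on deposited FPKM and at 0.60 with median-ratio scaling, 0.60 with edgeR (0.6035 unrounded) and 0.64 with DESeq2. The cause of this and of the other changed results was not tested.

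The count of markers called moved by over 1.5 times as follows. In RAW264.7 genotype with PBS went from 1 to 2 with edgeR, edgeR without a filter and DESeq2. The interaction in RAW264.7 went from 1 to 0 with a pseudocount of 0.01 and TPM, and to 2 with a pseudocount of 1, edgeR, edgeR without a filter and DESeq2. LPS in WT RAW264.7 went from 4 to 2 with a pseudocount of 1 and with the filter of 1 FPKM. In BMDMs genotype with PBS went from 0 to 1 with both FPKM filters and the intensity trend. The BMDM interaction went from 1 to 0 with a pseudocount of 0.01, TPM, edgeR, edgeR without a filter and DESeq2, to 2 with the filter of 1 FPKM and with adjusted p alone, and to 3 with a pseudocount of 1. Smaller moves included LPS in KO BMDMs from 6 to 4 with median-ratio scaling and DESeq2, genotype with LPS in BMDMs from 3 to 2 with these settings, a pseudocount of 0.01 and TPM, and genotype with LPS in RAW264.7 from 2 to 3 with edgeR, DESeq2 and the groups fitted alone. Leaving out 1 library gave 1 to 2, 2 to 3, 0 to 2, 3 to 4 and 3 to 4 markers in RAW264.7 (genotype with PBS, genotype with LPS, interaction, LPS in WT, LPS in those labelled KO) and 0 to 1, 3 to 3, 0 to 2, 5 to 6 and 5 to 6 in BMDMs.

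With the replicate block the RAW264.7 interaction went from 1 marker (Ccl17) to 0, with 521 and 367 genes called, and no other count of markers changed. Deviations of log2 levels from the group mean were correlated between samples of the same number in different groups. These correlations were -0.0395 to 0.0844 in RAW264.7 and -0.0579 to 0.0711 in BMDMs. They gave no sign of pairing, and the numbers were not used as pairs in the main fit.

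Over all genes a pseudocount of 1 lowered the genes called from 2287 to 1474 and from 4635 to 3054 for the 2 genotype comparisons of RAW264.7 (PBS, then LPS), and from 490 to 256, from 1285 to 439 and from 789 to 402 for genotype with PBS, with LPS and the interaction in BMDMs, where adjusted p alone gave 1116, 4804 and 1762. The RAW264.7 groups with PBS fitted alone gave 997, and TPM gave 339 against 521 for the interaction. Median-ratio scaling moved the share of higher genes from 19.6% to 47.9% and from 20.6% to 46.8% for LPS in WT and KO BMDMs, from 31.7% to 49.7% and from 33.8% to 51.7% in RAW264.7, and from 67.9% to 43.4% and from 65.1% to 46.8% for genotype with LPS and the interaction in BMDMs. TPM moved it from 56.0% to 68.9% and from 56.1% to 75.0% for genotype in RAW264.7. Depth limits Mgl2, Retnla, Mrc1, Chil3 and Ccl24 in RAW264.7, Ccl22 with PBS in RAW264.7, and Ccl17 with PBS in both cell types, with at most 40 counts in a group. The same limit holds in BMDMs for Retnla, for Mgl2 with LPS and for Ccl24 with PBS. Ccl22 with PBS in BMDMs held 28 counts in WT and 49 in KO.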
